A study of Mus musculus with 6 samples.

Results

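The genes described here encode surface receptors and released proteins of platelets and of megakaryocytes, the bone marrow and fetal liver cells that shed platelets. They are Gp1bb, Gp9, Gp5, Gp6, Itga2b, Itgb3, Vwf, Pf4 and Ppbp, and every non-control probe carrying a RefSeq accession of one of them was taken. That gave 9 genes read by 12 probes, of 20667 named genes and 55681 probes on the array design. Itgb3 had 2 probes, Gp1bb had 3, and the other genes had 1 each. Although the group is named for the cell surface, Vwf, Pf4 and Ppbp encode proteins that are stored in granules and released.

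The study compared blood progenitors of mouse fetal livers lacking Satb1, a nuclear protein that organises chromatin, with those of wild type littermates, all C57BL6/J at E18.5, late in gestation. Hematopoietic stem cells (HSC) were sorted as Lin- c-kitHi Sca-1+ Flt3- cells. Lymphoid-primed multipotent progenitors (LMPP) were taken from the same gate with Flt3 positive, and common lymphoid progenitors (CLP) as Lin- c-kitLo Sca-1Lo IL7Rα+ cells. Each of the 6 combinations of genotype and population was measured once, from 6.1 ng of total RNA, amplified before labelling with 1 dye, on a mouse Agilent array. The sources used here do not give the number of embryos behind a sample, and 1 embryo may have given cells to several populations. The Satb1-null animals were titled as knockouts, with no note of a tissue-limited deletion.

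All 6 arrays lay on 1 slide, with the wild type in slide row 1 and the Satb1-null samples in slide row 2, so genotype and row cannot be told apart, nor can population and slide column. Between 52.4% and 57.7% of spots were well above background. The probe for Satb1 did not separate the genotypes (-0.03 and -0.59 in wild type and Satb1-null HSC, 2.0 and 1.96 in LMPP, 0.71 and 0.65 in CLP), and since its place relative to the deletion is not given it does not check the labels. Flt3 was highest on both LMPP arrays (3.21 and 3.32) and Il7r on both CLP arrays (1.61 and 1.55), as the gates define them. Xist, the RNA of the inactive X chromosome, was at 4.74, 4.18 and 4.45 on the 3 Satb1-null arrays (HSC, LMPP, CLP) and near background on the wild type arrays. Y-linked Ddx3y and Eif2s3y were well above background on all 6 arrays, with Ddx3y between -0.63 and 0.44 on the wild type arrays and between -2.44 and -1.60 on the Satb1-null arrays, so sex-linked signals went with the genotype labels and cannot be told apart from them. Throughout, a level is log2 of the processed signal with the 75th percentile of the array's signals set to 0, and levels are compared between arrays for 1 probe, not between probes.

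Platelets stop bleeding through a few receptors. The GPIb-IX-V complex, built from Gp1ba, Gp1bb, Gp9 and Gp5 products, catches von Willebrand factor on a damaged vessel wall, GPVI signals from collagen, and the integrin of Itga2b and Itgb3 chains (CD41 and CD61) then binds fibrinogen and joins platelets together. Megakaryocytes make these proteins under GATA and ETS family transcription factors, and CD41 and von Willebrand factor are also found on or in some stem and early progenitor cells.

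The promoters of 7 of the 9 genes were available (RefSeq, GRCm38.p6). The stretches below are the 250 bases before the start of 5 of them. Itga2b, Pf4 and Ppbp are shown because the estimates below put them higher in CLP than in LMPP, and Gp1bb and Gp9 because theirs lay near 0. Gp5 and Gp6 were not tested. Capitals mark the GATA hexamers (AGATAA or AGATAG or TGATAA or TGATAG) and the ETS core GGAAG, searched on both strands (a match on the other strand reads as the reverse complement), and no marked GATA hexamer overlaps a marked core.
Itga2b, chr11:102469884-102470133, minus strand: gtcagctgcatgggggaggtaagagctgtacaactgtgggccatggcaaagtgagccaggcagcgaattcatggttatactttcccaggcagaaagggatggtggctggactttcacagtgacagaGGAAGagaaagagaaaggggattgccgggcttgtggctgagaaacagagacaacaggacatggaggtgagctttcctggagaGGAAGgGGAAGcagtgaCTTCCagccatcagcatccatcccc
Pf4, chr5:90772185-90772434, plus strand: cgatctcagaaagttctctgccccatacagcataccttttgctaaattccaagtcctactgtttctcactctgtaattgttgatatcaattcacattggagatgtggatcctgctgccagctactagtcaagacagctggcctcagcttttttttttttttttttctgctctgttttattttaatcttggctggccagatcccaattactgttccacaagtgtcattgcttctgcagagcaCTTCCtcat
Ppbp, chr5:90768268-90768517, plus strand: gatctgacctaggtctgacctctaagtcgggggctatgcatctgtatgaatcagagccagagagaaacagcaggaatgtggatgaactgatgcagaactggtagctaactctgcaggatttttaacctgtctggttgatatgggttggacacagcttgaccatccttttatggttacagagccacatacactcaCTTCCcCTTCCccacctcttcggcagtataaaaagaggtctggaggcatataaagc
Gp1bb, chr16:18622404-18622653, minus strand: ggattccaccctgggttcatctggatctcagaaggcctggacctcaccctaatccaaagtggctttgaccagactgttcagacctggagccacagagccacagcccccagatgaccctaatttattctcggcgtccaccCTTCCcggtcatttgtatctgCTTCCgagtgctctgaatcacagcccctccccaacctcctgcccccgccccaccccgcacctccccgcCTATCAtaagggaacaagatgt
Gp9, chr6:87777820-87778069, plus strand: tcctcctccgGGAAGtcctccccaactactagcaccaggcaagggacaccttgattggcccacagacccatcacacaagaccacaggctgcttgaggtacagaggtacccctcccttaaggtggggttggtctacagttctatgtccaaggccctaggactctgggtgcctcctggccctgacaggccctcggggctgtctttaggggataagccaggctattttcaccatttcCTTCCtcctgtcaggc
The ETS core was found in 6 of the 7 promoters, against 64.1% of 32536 mouse promoters of the same length, and a GATA hexamer in 3 of the 7, against 26.5%. Itga2b held 4 cores, 3 of them between 42 and 21 bases before the start, and the Pf4 core lay 9 to 5 bases before it. Gp1bb held 1 GATA hexamer, 22 to 17 bases before its start, Gp5 held 3 and Gp6 held 1 with no core. These are matches of letters in a fixed window, and the array data carry no measurement of binding.

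Gp1bb, the beta chain of GPIb that is disulfide-linked to the ligand-binding chain, had nearly the same level everywhere. Its brightest probe read 1.08 in wild type HSC, 0.66 in LMPP and 0.97 in CLP, and 0.68, 0.68 and 0.49 in the Satb1-null counterparts. The 6 values span 0.59 and no population stands apart. The other Gp1bb probes were near background, being well above it on 4 arrays and on 1 array, with levels between -4.88 and -3.24, so 3 probes given to 1 gene did not read alike. Gp9, the small chain that the complex needs to reach the surface, read -1.08 in HSC, -1.07 in LMPP and -0.56 in CLP of the wild type, against -0.58, -0.93 and -1.45 without Satb1. Its highest and lowest values were both in CLP, the wild type high and the Satb1-null low. Gp5, the chain cleaved by thrombin, was well above background only in wild type CLP, at -1.21.

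Gp6, the collagen receptor, was well above background on 2 arrays, at -0.56 in wild type CLP and at -2.96 in Satb1-null LMPP. For Gp5 and Gp6 the remaining arrays give only an upper bound, the higher of the probe's own reading and the lowest signal that counted as well above background on that array (-4.19 to -3.76). The own reading was the higher for Gp5 in Satb1-null LMPP (-3.40) and Satb1-null CLP (-3.97).

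Itga2b, the alpha chain of the fibrinogen receptor, read -0.20 in wild type HSC, -2.81 in LMPP and 0.85 in CLP, against 0.18, -0.48 and 0.39 without Satb1. Both CLP arrays were above the other 4, and the wild type LMPP array stood far below the rest. Itgb3, the beta chain, which also pairs with another alpha chain in other cells, read 2.59, 2.43 and 5.85 in the same order in wild type, then 3.26, 3.59 and 5.35 without Satb1, on its brightest probe. The second Itgb3 probe gave 1.54, 1.72 and 3.72, then 1.63, 1.82 and 3.22. On both probes the CLP arrays were clear of the others and the HSC and LMPP arrays lay close together.

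Vwf, the multimeric ligand of GPIb that megakaryocytes and endothelial cells store, read -0.54 in HSC, -2.24 in LMPP and 1.75 in CLP of the wild type, against 0.58, 0.46 and 0.92 without Satb1. Its order over the arrays was that of Itga2b except among the middle values, with wild type CLP highest and wild type LMPP lowest. The platelet alpha granule chemokine Pf4 read 1.41, 2.42 and 5.31 in wild type, then 2.39, 3.98 and 4.70 without Satb1, increasing from HSC through LMPP to CLP in each genotype. Ppbp, the precursor of the granule chemokine NAP-2, read -3.35, -2.34 and 1.83 in wild type. Without Satb1 it read -0.56 in LMPP and 0.84 in CLP, and in HSC it did not clear background. Its order over the populations was that of Pf4.

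**Figure D1:**
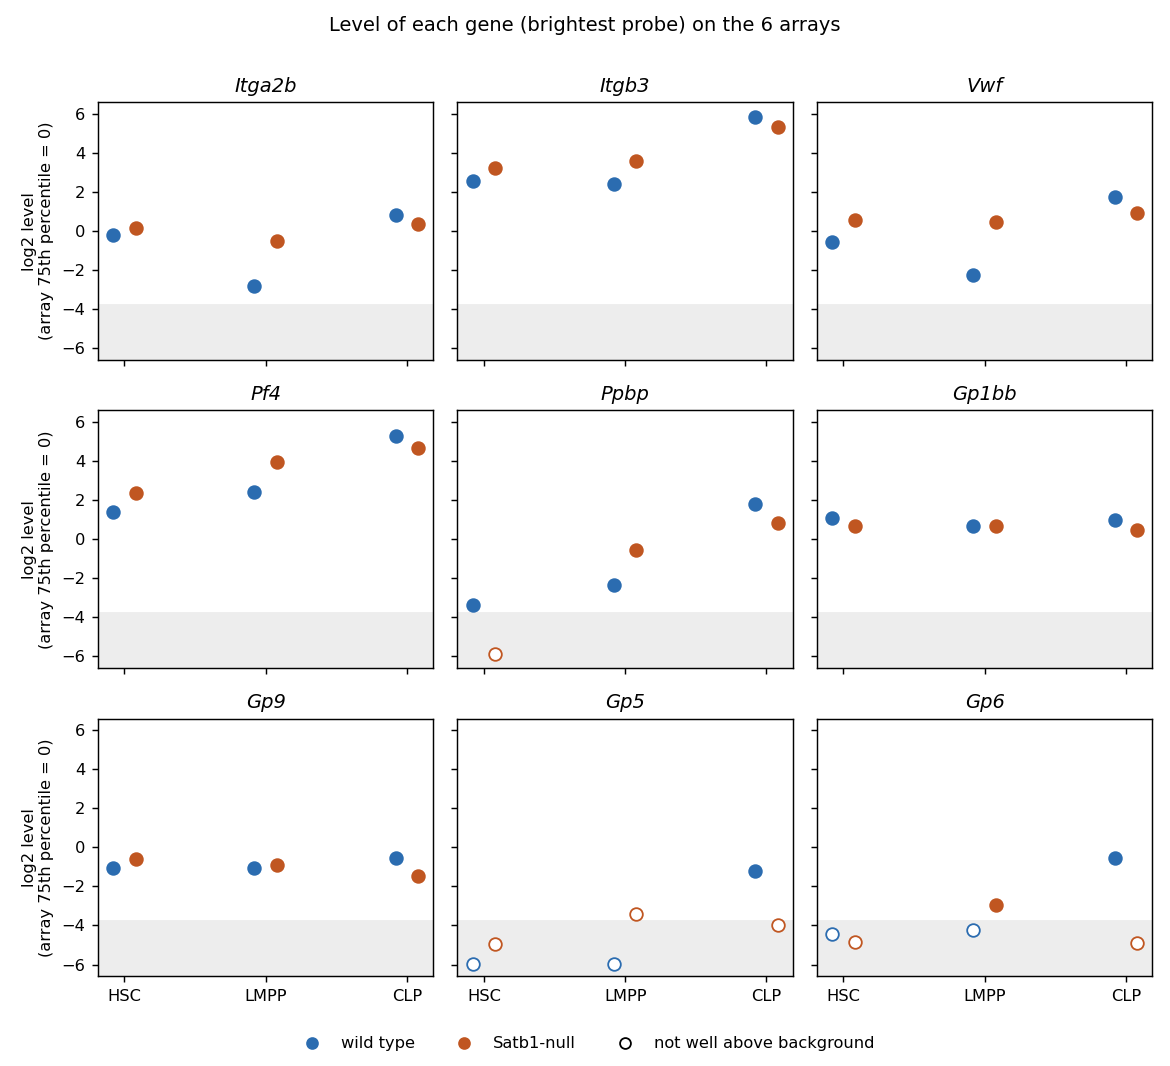
Levels of the 9 genes by their brightest probe on the 6 arrays, with 1 panel per gene, the sorted population on the horizontal axis and the log2 level (75th percentile of the array at 0) on the vertical axis; open circles were not well above background and the grey band lies below the highest of the arrays' lowest well-above-background signals. Itgb3, Pf4 and Ppbp step up in CLP, the wild type LMPP points of Itga2b and Vwf sit low at -2.81 and -2.24, and Gp1bb and Gp9 stay within a narrow band.

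Among the sorted populations, CLP carried the most signal for these genes. In wild type, 7 of the 9 genes (all but Gp1bb and Gp9) were more than 2-fold above both HSC and LMPP in CLP, where 10.7% of 15159 detected genes were. Gp5 and Gp6 are among them only through the wild type CLP array, the single wild type array on which they were well above background, which leaves 5 of the other 7 genes. In Satb1-null it was Itgb3 and Ppbp, 2 of 9, where 9.53% of genes were. Of the 6 genes detected on all arrays, 4 (Itga2b, Itgb3, Pf4 and Vwf) had both CLP arrays above the other 4 arrays, against 22.9% of 11021 such genes. In these bulk samples more cells of a type and more RNA per cell cannot be told apart.

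Across both genotypes the differences were estimated with limma, in a model with additive genotype and population terms that uses all 6 arrays. The model leaves 2 residual degrees of freedom. They hold how far the genotype difference varied between populations, since no group has a replicate array. The fit tested 30570 probes well above background on at least 3 arrays, which leaves out Gp5, Gp6 and 1 probe of Gp1bb. Against HSC, CLP was higher by 5.03 for Ppbp (95% confidence interval 2.99 to 7.06, adjusted p = 0.058), by 3.11 for Pf4 (1.54 to 4.68, adjusted p = 0.0756) and by 2.68 for Itgb3 (1.42 to 3.94, adjusted p = 0.0689). For Ppbp the Satb1-null HSC value was set to the array's lowest well-above-background signal, and with the measured value the estimate was 5.94. These estimates correspond to 32.6-fold, 8.61-fold and 6.41-fold, and the 3 genes were higher in CLP in both genotypes. None passed the adjusted threshold of 0.05, by which limma called 0 of the 7 tested genes and 2.28% of all probes tested. At an unadjusted p under 0.05 the same 3 genes passed, all higher, as did 11% of all probes higher. Vwf was 1.31 higher (-1.02 to 3.65, adjusted p = 0.424) and Itga2b 0.63 higher (-1.31 to 2.56, adjusted p = 0.644), both with intervals spanning 0.

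The adjusted values for these 3 genes lay close to the threshold and moved across it with the processing. With arrays centred on their medians, with normexp background correction, with an intensity trend in the variance, or with probes averaged per gene, limma called Itgb3, Pf4 and Ppbp in CLP against HSC, with adjusted p between 0.0177 and 0.0471 for Itgb3 and Pf4. Leaving out 1 array at a time gave 4.26 to 5.79 for Ppbp, 2.16 to 4.05 for Pf4 and 1.97 to 3.39 for Itgb3. Such fits have fewer residual degrees of freedom, so their calls cannot show whether these genes depend on 1 array. Centring also moved the share of called probes that were higher, from 53.3% to 72.5% with medians and to 38.5% with the percentile taken over probes detected on all arrays.

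Against LMPP, CLP was higher by 2.79 for Ppbp (0.75 to 4.82), by 2.59 for Itgb3 (1.33 to 3.85), by 2.27 for Itga2b (0.33 to 4.20), by 2.22 for Vwf (-0.11 to 4.55) and by 1.80 for Pf4 (0.23 to 3.37). The adjusted p from limma ran from 0.0713 for Itgb3 to 0.231 for Vwf, and 0 of 7 genes were called, where 2.95% of probes were. At an unadjusted p under 0.05, 4 of the 7 passed (Itga2b, Itgb3, Pf4 and Ppbp), all higher, as did 9.45% of all probes higher. The median difference over the 7 genes was 2.22, against -0.12 over all probes tested. Leaving out 1 array at a time gave 0.85 to 3.59 for Vwf, 0.86 to 2.75 for Pf4, 1.08 to 3.45 for Itga2b and 1.47 to 4.10 for Ppbp, and within genotypes Vwf was higher by 3.98 in wild type and by 0.46 in Satb1-null. For Gp1bb and Gp9 in CLP against HSC the estimates were -0.15 (-0.88 to 0.57) and -0.17 (-1.29 to 0.94), with signs that turn when arrays are centred on their medians.

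Between LMPP and HSC the genes did not share a direction. LMPP was higher by 2.24 for Ppbp (0.20 to 4.28, adjusted p = 0.64) and by 1.30 for Pf4 (-0.27 to 2.87), and lower for Itga2b (-1.64, -3.57 to 0.29) and Vwf (-0.91, -3.24 to 1.43). In this comparison limma called no probe at all (0%), and 7.78% of probes, with Ppbp alone among the 7 genes, had an unadjusted p under 0.05. Without the wild type LMPP array, Vwf was 0.37 higher in LMPP.

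**Figure D2:**
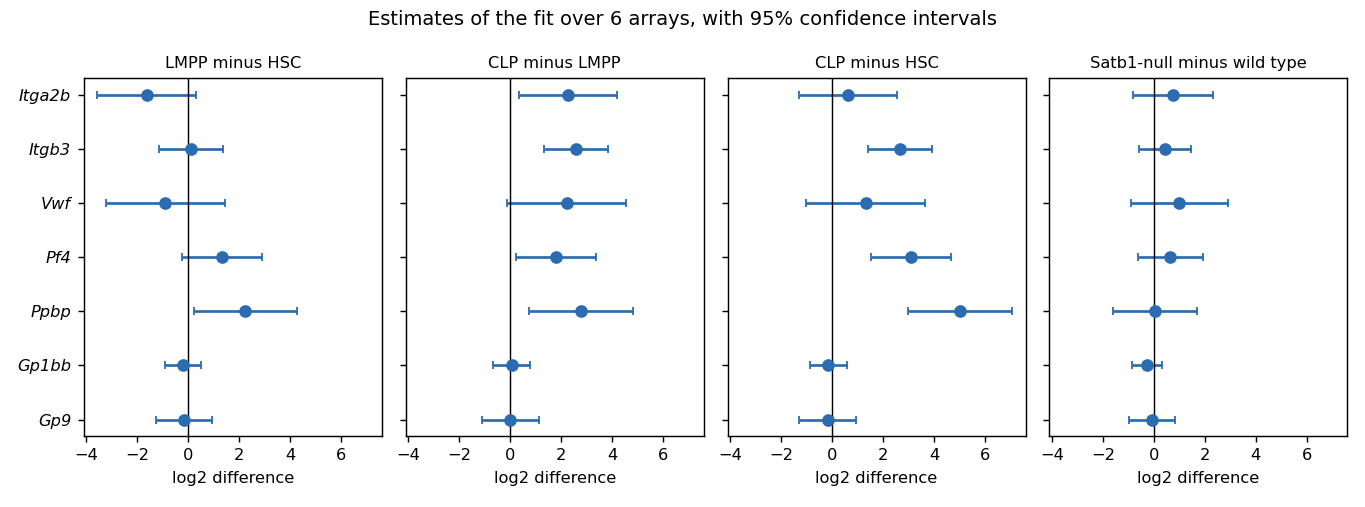
Estimates from the limma fit over 6 arrays for the 7 tested genes (brightest probes), as log2 differences on the horizontal axis with 95% confidence intervals, with 1 panel per comparison. The intervals of Itgb3, Pf4 and Ppbp lie above 0 in both CLP panels, those of Gp1bb and Gp9 include 0 in every panel, and in the genotype panel every interval includes 0.

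Other platelet genes were read from lists chosen with results of these data known. Among 17 receptors and adhesion partners, of which 14 were tested, CLP against HSC rose for 3 and fell for 2 by limma's adjusted p, where 1.21% of probes were higher and 1.06% lower. Gp1ba, the ligand-binding chain of GPIb, rose by 2.93 (adjusted p = 0.0378), with levels from HSC to CLP of -1.90, -1.83 and 1.28 in wild type, then -1.50, -1.65 and 1.19 without Satb1. Gp1ba thus stepped up in CLP in both genotypes, while the levels of its partner chains Gp1bb and Gp9 did not. For Gp1bb this rests on its brightest probe, as its other probes were near background. The difference between these genes was not tested. Fcer1g, the signalling chain of GPVI and of Fc receptors, rose by 3.23 (adjusted p = 0.0375) and the scavenger receptor Cd36 by 3.43 (adjusted p = 0.0388). Cd36 did not clear background on either HSC array. Both of its HSC values were set to the array's lowest well-above-background signal, and its estimate and p rest on them. The endothelial and platelet adhesion molecule Esam fell by 3.57 (adjusted p = 0.0394).

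Of 19 granule and cytoskeleton genes 18 were tested, and 3 rose and none fell in CLP against HSC. They include the adhesive glycoprotein Thbs1, which rose by 4.10 (adjusted p = 0.0344), and coagulation factor F5, which rose by 2.75 (adjusted p = 0.0378). The median over the 18 was 1.30. Of 10 transcription factors of megakaryocytes, Meis1, also a stem cell factor, fell by 3.56 (adjusted p = 0.0363). Gata1, which drives megakaryocyte and erythroid genes, was 2.24 higher in CLP than in HSC (adjusted p = 0.0646 by limma) and rose by 4.12 against LMPP (adjusted p = 0.0349). Gata2, active in stem cells and early megakaryocytes, was lower in CLP at -1.36 without passing (adjusted p = 0.104).

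Some markers of other blood cells moved with these genes across the populations, while stem cell markers did not. The summed signal of 9 platelet genes (in multiples of the array's 75th percentile) was 12.97, 13.4 and 110.0 from HSC to CLP in wild type, then 19.8, 33.0 and 73.8 without Satb1. Such a sum adds probes of unlike brightness and is compared between arrays only, and in wild type CLP the probes of Itgb3 (57.8) and Pf4 (39.8) made up most of it. That of 15 erythroid markers was 80.3, 78.3 and 1094, then 118, 194 and 1142. Of the 14 erythroid markers tested, 5 rose and none fell in CLP against HSC, with a median of 2.78. The 10 markers of mast cells, basophils and eosinophils summed to 11.9, 4.58 and 213 in wild type and 14.9, 12.6 and 156 in Satb1-null. Within that list Fcer1a was not well above background on any array, and Mcpt4 and Cma1 only on HSC arrays. The wild type CLP sum was carried mostly by the probe of Prg2 (level 7.27), followed by Epx (4.64) and Prg3 (4.51). Cpa3 read lower in CLP than in HSC, from 1.59 to 0.69 in wild type and from 2.18 to 1.81 in Satb1-null. The 10 macrophage markers summed to between 22.1 and 35.2, a sum carried by the probe of Csf1r (level 4.61 in wild type HSC and 4.39 in wild type CLP). Of 6 of them tested, 2 rose and none fell in CLP against HSC, with a median of 3.76, and 9 were well above background in Satb1-null CLP and 4 in wild type HSC. Endothelial markers went both ways, as 3 of 11 tested rose and 3 fell in CLP against HSC, with a median of -0.72. The part of these cells in the platelet gene levels was not tested.

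**Figure D3:**
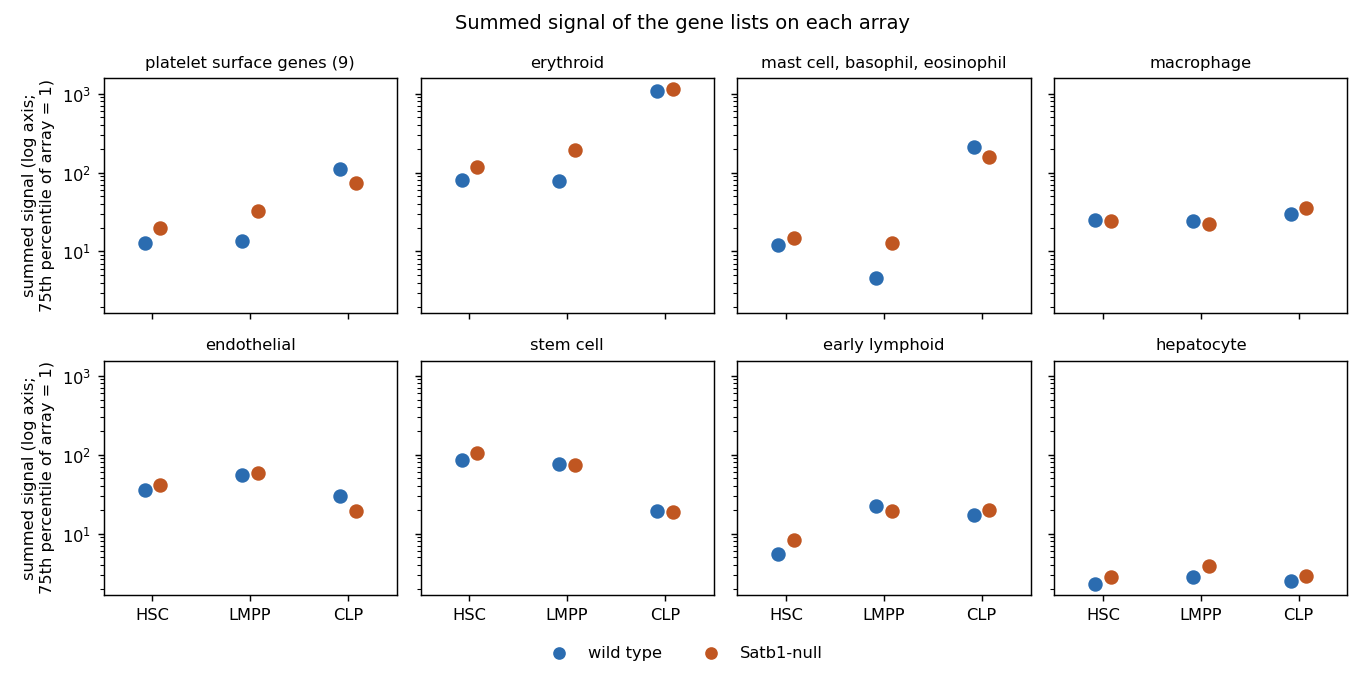
Summed signal of the platelet genes and of marker lists for other cell types on each array, on a log axis in multiples of the array's 75th percentile, with the sorted population on the horizontal axis and colour for genotype. The platelet and erythroid sums and that of the mast cell, basophil and eosinophil list are highest in CLP. In LMPP all 3 sums are higher in Satb1-null than in wild type.

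The genotypes were then set against each other within each population, 1 array against 1, so these differences have no replicate check. In LMPP most of the genes were higher without Satb1. Vwf was higher by 2.70 (6.49-fold), Itga2b by 2.33 (5.03-fold), Ppbp by 1.79 (3.45-fold), Pf4 by 1.56 (2.95-fold) and Itgb3 by 1.16 (2.23-fold), and Gp6 by at least 1.08. The scanner software's own error of such a difference was 0.20 to 0.26 for the first 5, and it covers the reading of the spots, not differences between samples. Gp9 (0.14) and Gp1bb (0.01) were nearly level. Thus 6 of the 8 measured genes were more than 2-fold higher and none lower. Of 13350 measured genes, 5.79% were more than 2-fold higher and 3.75% lower. Gp6 counted as measured here only through the Satb1-null array, on which it was high, so the count is read for the first 5 alone. The median over the 8, with Gp6 included, was 1.36, and that over all genes was -0.04.

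Parts of this rest on low readings. The wild type LMPP array holds the lowest level of Itga2b and of Vwf, and with normexp background correction the differences were 1.19 for Itga2b, 1.54 for Vwf, 0.95 for Ppbp and at least 0.32 for Gp6, which left 4 of the genes past 2-fold. The second Itgb3 probe differed by 0.10, and with the probes of a gene averaged the difference was 0.63, so the probes of that gene disagree on the genotype difference in LMPP while they agree on the step to CLP. Averaging probes left 5 past 2-fold. In the same pair of arrays 9 of 14 measured erythroid markers were more than 2-fold higher in Satb1-null, with a median of 2.15, among them the heme synthesis enzyme Alas2 (-2.60 in wild type, 0.43 in Satb1-null) and the red cell anion exchanger Slc4a1 (1.42 and 3.97). Of the 5 measured markers of mast cells, basophils and eosinophils, 4 were more than 2-fold higher and none lower. The erythroid markers Klf1 and Rhag, and Cpa3, were measured here only through the Satb1-null array, on which they were high. Their part in these counts is therefore not read. Of 11 endothelial markers, 9 were well above background in wild type LMPP and 8 in Satb1-null LMPP, with Cdh5 on neither array. The 9 measured endothelial markers had a median difference of -0.14, with none more than 2-fold higher and 1 lower. The part of erythroid and other myeloid cells in these differences was not tested.

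In HSC, 5 of the 7 measured genes were higher in Satb1-null and 2 lower. Vwf was 1.12 higher in Satb1-null (2.18-fold), Pf4 0.99, Itgb3 0.67, Gp9 0.50 and Itga2b 0.38, while Gp1bb (-0.40) and Ppbp (at least -0.69, a bound) were lower. Only Vwf was past 2-fold, 1 of 7 measured genes, where 8.43% of 13944 genes were. The second Itgb3 probe differed by 0.09. The scale matters here, since the median over all genes was 0.13 with the percentile used, 0.31 with arrays centred on medians and 0.00 with the percentile over probes detected on all arrays, and 59.0%, 73.5% and 46.0% of the genes past 2-fold were higher. The median over the 7 platelet genes was 0.50 on the scale used. Erythroid markers were 2-fold higher for 6 of 14, with a median of 0.76.

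In CLP all 9 genes were lower in Satb1-null. Gp6 differed by at least -3.63 and Gp5 by at least -2.76, both being well above background only in wild type. Ppbp was lower at -0.98, Gp9 at -0.89, Vwf at -0.82, Pf4 at -0.61, Itgb3 at -0.50 on both of its probes, Gp1bb at -0.48 and Itga2b at -0.46. Gp5 and Gp6 alone were past 2-fold lower, as were 8.32% of 13669 measured genes, and both were measured here only through the array on which they were high, so their count is not read against that share. None of the other 7 was past 2-fold. The median over the 9 was -0.82 and that over all genes 0.05. The median over the 9 includes Gp5 and Gp6, so it is likewise not read against that of all genes. The other 7 lay between -0.98 and -0.46. Of the 6 genes detected on all arrays, 6 were lower, where 47.2% of such genes were. Normexp correction left the bounds of Gp6 and Gp5 at -1.62 and -1.11. Here the erythroid markers did not go with the platelet genes (0 of 15 past 2-fold in either direction, median 0.17), while 7 of 11 endothelial markers were more than 2-fold lower, with a median of -1.23 and sums of 30.1 and 19.3. Vwf is itself an endothelial gene. The part of endothelial cells was not tested.

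**Figure D4:**
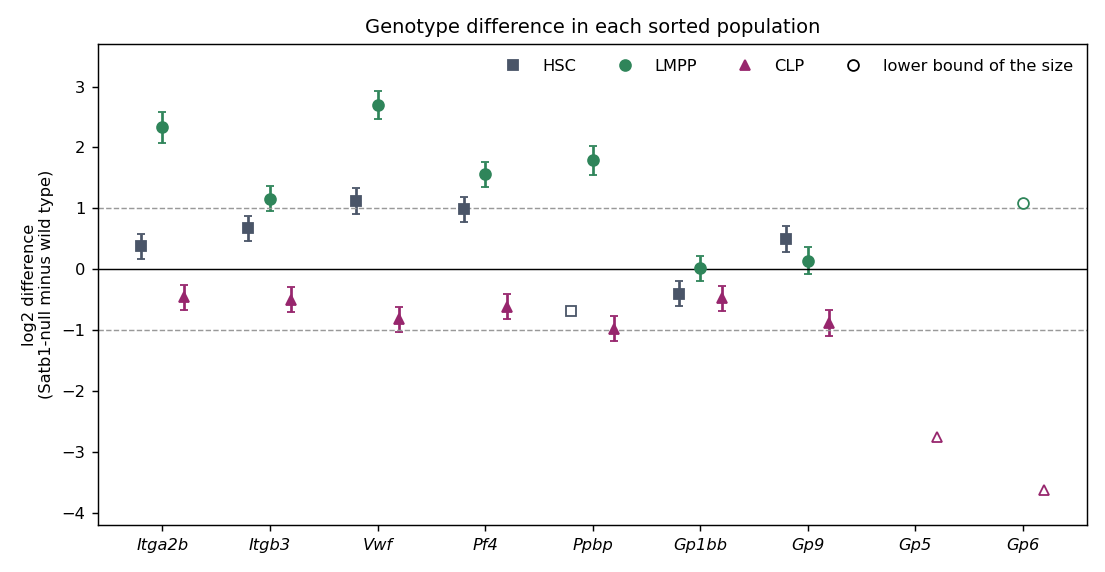
Satb1-null minus wild type for each gene within HSC (squares), LMPP (circles) and CLP (triangles), as log2 differences of 1 array against 1, with bars for the scanner software's error, open symbols for bounds and dashed lines at 2-fold. Vwf, Itga2b, Ppbp, Pf4 and Itgb3 lie above the upper dashed line in LMPP, and the CLP triangles of all 9 genes lie below 0.

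Put together, 5 of the 6 genes detected on all arrays (Gp9, Itga2b, Itgb3, Pf4 and Vwf) were higher without Satb1 in HSC and LMPP and lower in CLP, an order that 13.4% of 11021 genes shared. That order takes signs alone. The LMPP difference of Gp9 was 0.14, under the scanner software's error of 0.22. The second Itgb3 probe differed by 0.09 in HSC and 0.10 in LMPP, both under its error of 0.20. In the fit over the 3 populations the opposite signs of the genotype difference partly cancelled. The estimates for Satb1-null minus wild type were 0.998 for Vwf (-0.91 to 2.90, adjusted p = 0.816), 0.75 for Itga2b (-0.83 to 2.33), 0.64 for Pf4 (-0.64 to 1.92), 0.44 for Itgb3 (-0.58 to 1.47), 0.04 for Ppbp (-1.63 to 1.70), -0.08 for Gp9 (-0.99 to 0.83) and -0.29 for Gp1bb (-0.88 to 0.30). By limma 0 of the 7 genes were called, where 0.0131% of probes were called, and none had an unadjusted p under 0.05, where 6.21% of probes did. A term for a genotype difference that depends on the population could not be fitted with 1 array in each group.

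The lists of other platelet genes were compared between genotypes in the same way. In LMPP, 3 of 15 measured receptors were more than 2-fold higher in Satb1-null and none lower, with a median of 0.18, beside 5.79% of all genes higher. They were the podoplanin receptor Clec1b (1.47), Treml1, a receptor of the alpha granule membrane (1.35), and the collagen-binding integrin chain Itga2 (at least 1.35). Gp1ba (0.18) was nearly level. Among granule and cytoskeleton genes 3 of 19 were more than 2-fold higher. They were the secreted chaperone Clu at 1.84, Cavin2, a coat protein of caveolae, at 1.66 and Myl9 at 1.17 or more. Itga2 and Myl9 were measured here only through the Satb1-null array, on which they were high. Counts that include them are therefore not read against the share of 5.79%. Gata1 was higher by 1.01, the only 1 of 10 transcription factors past 2-fold. In CLP, where 8.32% of all genes were more than 2-fold lower, 4 of 18 measured granule genes were, among them the platelet tubulin Tubb1 (-1.91) and the matrix protein Sparc (-1.66), and 1 of 14 receptors, the thrombin receptor F2rl3 (-1.63).

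Over the 6 arrays the most alike profiles were those of Vwf and Itga2b (Pearson r 0.94) and of Itgb3 and Pf4 (0.93), while Gp1bb had r of 0.41 or less with each of the other 6 genes compared. Among 6162 other varying genes, the 3 most like each were Rtn1, Fer and H2al1m for Vwf (r 0.98, 0.97 and 0.97), Fer, Ces2g and Stc2 for Itga2b (0.99, 0.98 and 0.98), Stfa1, Stx2 and Rgcc for Itgb3 (0.998, 0.998 and 0.996), and Slc26a10, Pi16 and Hpgd for Pf4 (0.99 each). For Ppbp they were Alox12, Cog8 and Acox3 (0.996, 0.99 and 0.99), of which Alox12 encodes the platelet 12-lipoxygenase. Neither Ppbp nor Alox12 was well above background in Satb1-null HSC, so the lowest point behind their r is a background reading. For Gp1bb they were Fabp3, Rps23rg1 and Mfsd8 (0.995, 0.97 and 0.97) and for Gp9 Socs1, Golga1 and Sft2d3 (0.98, 0.95 and 0.95). The points are 6 arrays of 1 slide, and the correlations are given as a description.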

How the data were processed

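Intensities were deposited as scanner output, 1 array per sample, read with Agilent Feature Extraction 10.10.1.1 per the file headers (10.10 in the submitters' processing notes). The file headers report statistics of background subtraction and spatial detrending by that software. The authors' deposited value table holds that intensity times 1 constant per array (5.71 to 8.77), on a basis not given in the sources used here, with column medians of 121 to 200.1. Log2 of the deposited processed signal was centred on each array's 75th percentile, control and outlier spots were left out, and spots of a probe were averaged. Per the file headers the design used mouse build mm9. Of 55681 probes, 27248 were named through RefSeq accessions.

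Probes well above background on at least 3 of 6 arrays were tested with limma 3.58.1 in R 4.3.3 (genotype and population, Benjamini-Hochberg, threshold 0.05), with dim values raised to the array's lowest well-above-background signal. The fit was tested on simulated data. Differences of 1 array against 1 were called past 2-fold, with a bound where the dimmer signal did not clear background. Gene counts use the brightest probe. With 1 array in each group, the p-values and intervals rest on how far the genotype difference varied between populations. They hold no spread between replicates. The number of arrays limits the precision.

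Alternatives were other centring, quantile normalization, normexp (offset 50, on median signals, as mean signals are not in the files used), the authors' values, filters, floors, a variance trend, probe averaging, and leaving out each array. The members and lists (platelet, erythroid, mast cell, macrophage, endothelial, hepatocyte, stem cell, early lymphoid) were chosen with earlier results of these data known. Named genes are the 9 genes, Gp1ba and up to 4 genes per list with the largest difference, and some items are not reported here. Figures and joins used Python 3.11.15, pandas 2.3.3, numpy 2.4.6 and matplotlib 3.10.9. No genotype by population term could be fitted.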

Additional observations from a re-analysis of the deposited data

Results flagged for a closer look

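The genotype difference had opposite signs in CLP and in another population for most of the platelet genes, which is why they are listed here. Each value below is the Satb1-null minus wild type difference in HSC or LMPP less that in CLP, on the log2 scale, from 1 array in each group, and the difference between populations was not tested. Between HSC and CLP it was 1.95 for Vwf, 1.60 for Pf4, 1.39 for Gp9, 1.17 for Itgb3 and 0.84 for Itga2b. Between LMPP and CLP it was 3.52 for Vwf, 2.80 for Itga2b, 2.77 for Ppbp, 2.17 for Pf4 and 1.66 for Itgb3, and 4.71 for Gp6, whose parts are both bounds. With the second Itgb3 probe the genotype differences were 0.09 (HSC), 0.10 (LMPP) and -0.50 (CLP). The summed erythroid signal was higher in Satb1-null on the HSC and LMPP arrays (118 against 80.3, and 194 against 78.3) and close in CLP (1142 against 1094), and its part in these values was not tested.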

How the results depend on the processing

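The additive fit was the only tested comparison, since each group holds 1 array, and no alternative made a tested gene pass in LMPP against HSC or in the genotype comparison. No pairing of replicate samples was possible, since each group holds 1 array and the labels give no replicate numbers. The additive fit itself compares genotypes within populations.

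In the fits, leaving out any 1 array lowered the residual degrees of freedom, so calls are not compared there and only estimates are given. For the genotype, 4 probes were called, and 0 with quantile normalization, 0 with probes detected on all arrays and 1 with probes averaged per gene. For CLP against LMPP, 901 probes became 451 with quantile normalization, 2507 with normexp, 1515 without a filter, 434 without a floor and 2828 with a variance trend. There 1 member was called with normexp, with detection on all arrays, with the trend and with probe averaging. For CLP against HSC, 696 probes became 1412 with median centring, 304 with quantile normalization, 2482 with normexp, 1544 without a filter, 290 without a floor, 2388 with the trend and 1274 genes with probe averaging. There 3 members were called with median centring, normexp, the trend and averaging, and 1 with detection on all arrays and without a filter. Called probes were higher in 53.3%, 41.8% with the authors' values and 40.0% without a floor.

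Some estimates turned sign. For the genotype, Ppbp was -0.00486 with the percentile over probes detected on all arrays, -0.13 with normexp and -0.57 without a floor. Leaving out arrays gave ranges of -0.84 to 0.55 for Ppbp, -0.042 to 1.36 for Itga2b and -0.37 to 0.32 for Gp9. For LMPP against HSC, Gp9 was 0.00879 with median centring, and Itgb3 was -0.0571, -0.0883 and -0.0801 with that percentile, quantile normalization and the authors' values. Ranges were -0.45 to 0.63 for Itgb3, -2.18 to 0.37 for Vwf, -0.44 to 0.0178 for Gp1bb and -0.61 to 0.27 for Gp9. For CLP against LMPP, Gp9 was 0.20 with median centring and 0.0794 with quantile normalization, and Gp1bb was -0.0275 with the percentile over detected probes. Ranges were -0.17 to 0.28 for Gp1bb and -0.61 to 0.60 for Gp9. For CLP against HSC, median centring gave 0.23 for Gp1bb and 0.21 for Gp9, and averaging gave 0.00396 for Gp1bb. Ranges were -0.0523 to 2.68 for Vwf, -0.28 to 1.54 for Itga2b and -0.78 to 0.43 for Gp9. The causes were not tested.

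Within populations, the genes past the threshold in HSC numbered 1990, and 419 with normexp, 4562 at 1.5-fold, 727 at 3-fold and 3767 without a detection filter. The members higher there were 1, then 2 with median centring or no filter, 0 with the percentile over detected probes, 0 with normexp, 3 at 1.5-fold and 0 at 3-fold, and those lower were 0, then 1 at 1.5-fold and 1 without a filter. In LMPP, 1273 became 232, 3043, 494 and 2728 under the same 4 settings, and members higher went from 6 to 4 with normexp, 5 with averaging and 3 at 3-fold. In CLP, 2761 became 978, 5337, 1250 and 4383, and members lower went from 2 to 6 at 1.5-fold. The 5337 genes are of 13669 measured, and 57.3% of them were higher. Gp5 and Gp6 are among the 6 only through the wild type array, on which they were high. In HSC, 58.0% of the genes past 1.5-fold were higher.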

Other observations

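Pf4 and Ppbp are next to each other among the coding genes of chromosome 5 in the RefSeq order, and their levels over the 6 arrays had a Pearson r of 0.87. That r includes the Satb1-null HSC reading of Ppbp, which did not clear background. Gp1bb and Gp5 are both on chromosome 16 and Vwf and Gp9 both on chromosome 6, but the genes of those pairs are not neighbours. Gp1bb has Tbx1 and Septin5 beside it. Stem cell markers ran the other way from the platelet genes over the populations. Of 11 tested, 5 fell and none rose in CLP against HSC by limma's adjusted p, with a median of -2.94, and their summed signal was 85.3 and 104 on the HSC arrays and 19.3 and 18.53 on the CLP arrays. Hepatocyte markers had sums of 2.27 to 3.86, with between 2 and 4 of 7 markers well above background on each array. Those sums were carried mostly by the probe of Trf (levels 0.85 to 1.83), and the other markers read -1.59 or lower. Of 3 measured in CLP, 2 (Alb and Ahsg) were more than 2-fold lower in Satb1-null and none higher. Early lymphoid markers summed to 5.53 and 8.37 in HSC, 22.1 and 19.2 in LMPP and 17.1 and 19.8 in CLP, and 1 of 8 tested rose in CLP against HSC.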
